A study of Rattus norvegicus with 12 samples.

Results

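Insulin receptor signalling to Foxo1 was followed through 7 genes, the insulin receptor Insr, the docking proteins Irs1 and Irs2, the catalytic phosphoinositide 3-kinase (PI3K) subunits Pik3ca and Pik3cb, the kinase Pdpk1 and the transcription factor Foxo1. They were chosen by name from the 14562 genes that carried their own symbol on the array, and each was read from the only transcript cluster (a set of probes for one transcript unit) with that symbol. The study asked what a disturbed maternal light schedule does to gene expression in the fetal kidney. Whole kidneys of Sprague-Dawley rat fetuses were collected at 19 days of gestation from mothers mated at 70 to 80 days of age under a 12:12 h photoperiod. In the LD group the mothers stayed on 12:12 h light and dark throughout gestation. In the CPS group (chronic photoperiod shifting) the light and dark phases were repeatedly reversed during gestation. By the study's methods the CPS mothers were put back on the 12:12 h photoperiod late in gestation, before the age of 19 days. No drug, transgene or diet was used, and the 6 LD and 6 CPS arrays each held RNA of a pool from 6 fetuses, read here as 1 pool per mother. The fetuses were not sexed, so males and females cannot be told apart in any value. One label gives the collection time as 8 h and another as 20 h clock time, the same for all 12 arrays. The study's own text gives 8 h for the array kidneys.

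Insulin bound to its receptor makes the receptor phosphorylate the docking proteins Irs1 and Irs2, which recruit PI3K. The lipid that PI3K makes brings Pdpk1 and Akt together at the membrane, Pdpk1 activates Akt, and Akt phosphorylates Foxo1, which then leaves the nucleus. In liver and muscle, Foxo1 that stays in the nucleus is known to activate genes of fasting and also Insr and Irs2, a loop that restores sensitivity to insulin. Arrays measure transcripts, so neither phosphorylation nor the location of Foxo1 was measured.

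Foxo1 and Irs2 had higher transcript levels in CPS than in LD kidneys, by 1.23-fold and 1.14-fold, at an unadjusted limma p under 0.05, a cutoff that the study applied to its unpaired one-way test. The receptor Insr, the other docking gene Irs1, both PI3K subunits and Pdpk1 did not pass it. Thus 2 of the 7 genes were called higher and 0 lower, beside 428 (2.94%) higher and 259 (1.78%) lower of all 14562 named genes, together 4.72%; the share of so few genes was not tested. After Benjamini-Hochberg adjustment over all 36685 clusters no gene passed (limma, lowest adjusted p = 0.887), while 1946 clusters had an unadjusted limma p under 0.05. The unpaired one-way test of the methods, rerun here, gave 2020 clusters unadjusted and 0 adjusted. The study itself reported fewer transcripts than 1946 or 2020 at that cutoff, slightly more of them lower than higher in CPS. The reason for the unlike counts was not tested. The median difference of all named genes was 0.01 on the log2 scale. With each array centred on its own median, the named genes split into 532 higher and 96 lower, and of the 7 members only Foxo1 passed, with a difference of 0.34, while Irs2 gave 0.23.

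The sequence before the start of Insr and of Foxo1 is shown because Insr is a known Foxo1 target and because Foxo1 had the largest difference of the members that passed. RefSeq windows (GRCr8) were given for 5 of the 7 genes, Insr, Irs1, Pdpk1, Pik3ca and Foxo1. They were searched on both strands for the forkhead motif GTAAACA (reverse TGTTTAC), the insulin response motif CAAAACA (reverse TGTTTTG) and the E-box CACGTG, the core that clock proteins bind. The Insr stretch covers 30 bases at chr12:6128885-6128914 on the minus strand, with the forkhead motif in capitals, 100 to 94 bases before the transcript start. The Foxo1 window covers the 250 bases before the gene, chr2:138462724-138462973 on the plus strand, and is all in lower case since none of the 3 motifs was found in it.
Insr site: acgggccgcgtTGTTTACtggccggagtcg
Foxo1 upstream: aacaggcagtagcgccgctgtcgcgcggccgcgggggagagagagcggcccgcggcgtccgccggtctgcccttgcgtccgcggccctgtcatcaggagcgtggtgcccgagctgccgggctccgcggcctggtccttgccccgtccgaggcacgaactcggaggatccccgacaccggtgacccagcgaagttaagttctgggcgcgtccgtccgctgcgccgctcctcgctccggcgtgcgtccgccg
The forkhead motif stood in 892 of 27457 genes' windows of this length (3.25%), the insulin response motif in 5.46% and the E-box in 5.79%. Among the 5 windows it was found in Insr and in Pik3ca, but the transcript start behind the Pik3ca window lies 43656 bases inside the annotated gene, and that of Insr 472 bases inside. The windows of Irs1 and Pdpk1 held none of the motifs, and the Pdpk1 start lies 8051 bases inside its gene. No motif overlapped another in these windows. G and C made up 74.4% of the Foxo1 window, beside a median of 52.0% over all windows.

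**Figure D1:**
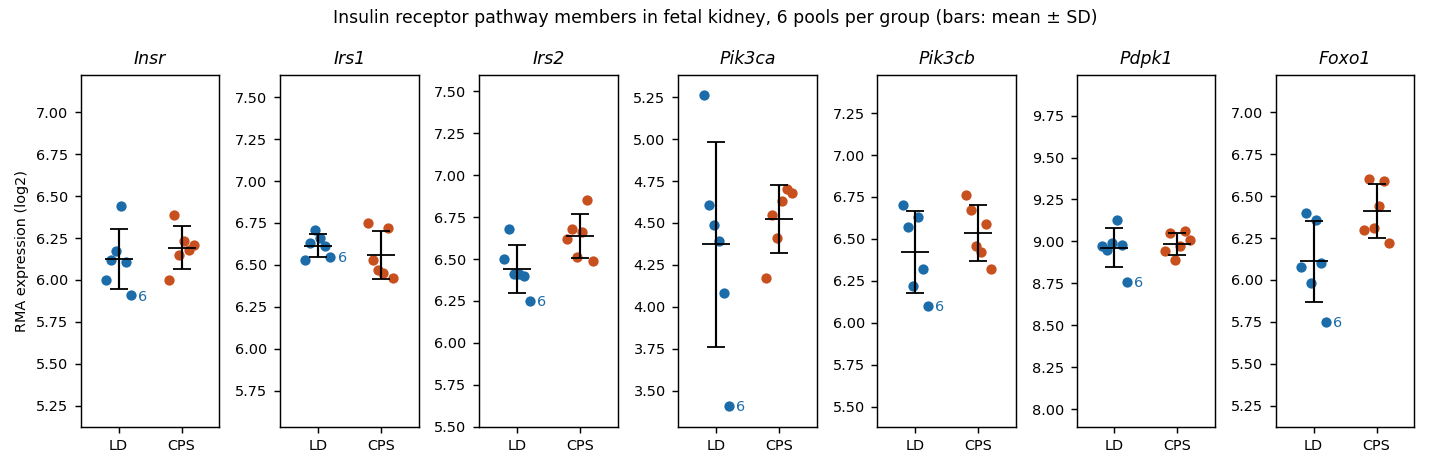
RMA expression (log2 scale, all panels spanning the same number of log2 units around each gene's mid-range) of the 7 genes in the 6 LD (blue) and 6 CPS (orange) pools. Points are pools in order of replicate, bars are mean ± SD, and the LD pool of replicate 6 is marked; the 6 CPS values of Foxo1 and of Irs2 all lie above the LD median.

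The receptor came first in the order of the pathway. Insr (transcript cluster 17671354) ranged in LD from 5.91 over a median of 6.12 to 6.44 on the log2 scale, and in CPS from 6.00 over 6.19 to 6.39. The groups overlapped widely, with LD replicate 4 above every CPS pool. The means were 6.13 ± 0.18 and 6.19 ± 0.13 (SD, n = 6 each), and the difference of 0.07 ± 0.09 (SE) gave p = 0.488 by limma and p = 0.455 by exact permutation (two-sided, 924 relabelings). Its 95% interval ran from -0.14 to 0.27, which leaves room for a rise as large as that of Irs2.

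Of the docking genes, Irs2 (cluster 17709452) was higher in CPS. It measured 6.50, 6.68, 6.41, 6.41, 6.40 and 6.25 in LD replicates 1 to 6 and 6.62, 6.68, 6.51, 6.66, 6.85 and 6.49 in CPS replicates 1 to 6. Every CPS pool lay above the LD median of 6.41 and 4 LD pools lay below the lowest CPS pool, yet LD replicate 2 reached the upper CPS range and only CPS replicate 5 stood clear of all LD pools. The difference was 0.19 ± 0.09 (SE) on the log2 scale, with means of 6.44 ± 0.14 and 6.63 ± 0.13 (SD, n = 6 each). It gave a limma p of 0.0436 (adjusted p = 0.887) and an exact permutation p of 0.0346, with a 95% interval from 0.01 to 0.38.

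Irs1 (cluster 17865965), the other docking protein that is widely expressed, ranged from 6.53 over 6.62 to 6.71 in LD and from 6.42 over 6.50 to 6.75 in CPS. It was the only member with a lower CPS mean, by -0.06 ± 0.08 (SE), and the groups overlapped (limma p = 0.447, exact permutation p = 0.379). CPS replicates 1 and 5 were its highest of all 12 pools and the other 4 CPS pools measured 6.53 or less, near or below the lowest LD pool. The CPS pools were more spread, with an SD of 0.14 beside 0.07 in LD, a difference that was not tested.

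Both PI3K genes gave CPS means above LD within their spread. Pik3cb (cluster 17854874) ranged from 6.10 over 6.44 to 6.70 in LD and from 6.32 over 6.52 to 6.76 in CPS, a difference of 0.12 ± 0.12 (SE; limma p = 0.342, exact permutation p = 0.346). Pik3ca (cluster 17876861), the subunit on which insulin signalling mostly depends in mouse liver, varied most of the 7, from 3.41 over 4.44 to 5.26 in LD and from 4.17 over 4.59 to 4.70 in CPS. Its LD pools held both the highest (replicate 1) and the lowest value (replicate 6), so that the LD range enclosed all CPS pools. The difference of 0.15 ± 0.24 (SE) had an interval from -0.38 to 0.68 (limma p = 0.545, exact permutation p = 0.589).

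Pdpk1 (cluster 17654277), the kinase that activates Akt, had the smallest SE of the 7. It ranged from 8.76 over 8.97 to 9.13 in LD and from 8.89 over 8.99 to 9.06 in CPS. All LD pools but replicates 4 and 6 fell within the CPS range, and the difference was 0.02 ± 0.07 (SE; limma p = 0.730, exact permutation p = 0.684, 95% interval -0.13 to 0.18).

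Foxo1 (cluster 17738449), at the end of the pathway, had the largest difference of the 7. It measured 6.08, 6.40, 5.98, 6.36, 6.10 and 5.75 in LD replicates 1 to 6 and 6.30, 6.60, 6.31, 6.44, 6.59 and 6.22 in CPS replicates 1 to 6. LD replicates 1, 3, 5 and 6 lay below every CPS pool, CPS replicates 2, 4 and 5 lay above every LD pool, and LD replicates 2 and 4 fell among the CPS values. The means were 6.11 ± 0.24 and 6.41 ± 0.16 (SD, n = 6 each) and differed by 0.30 ± 0.12 (SE) on the log2 scale, with a 95% interval from 0.04 to 0.55. The limma p was 0.0250 (adjusted p = 0.887) and the exact permutation p was 0.0325, where the smallest possible is 0.00216. In whole kidney, more RNA per cell and more cells that carry the transcript cannot be told apart.

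Single pools decided both calls. With each array left out in turn, Foxo1 kept its call in 8 of 12 fits and lost it without replicate 3 or 6 of LD or replicate 2 or 5 of CPS (difference 0.23 to 0.36, limma p from 0.00963 to 0.0565). Irs2 kept its call in 3 fits only, those that left out replicate 2 of LD or replicate 3 or 6 of CPS (0.15 to 0.24, limma p from 0.0127 to 0.101). The other 5 genes passed in none of the 12 fits.

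LD replicate 6 was the lowest of all 12 arrays for 6 of the 7 genes, all but Irs1. No other array was lowest for more than 1. Among the CPS pools, replicate 6 was the lowest of its group for 4 genes and replicate 5 the highest for 3. LD replicate 6 also had the highest mean of the liver markers among the LD arrays, 6.50, and the lowest means of all 12 for the nephron (7.24) and endothelial (7.09) markers, which are levels averaged over each list. Without it, the difference was 0.23 for Foxo1 and 0.16 for Irs2, neither past the threshold, and 0.025 for Insr, 0.053 for Pik3cb, -0.017 for Pdpk1 and -0.042 for Pik3ca.

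**Figure D2:**
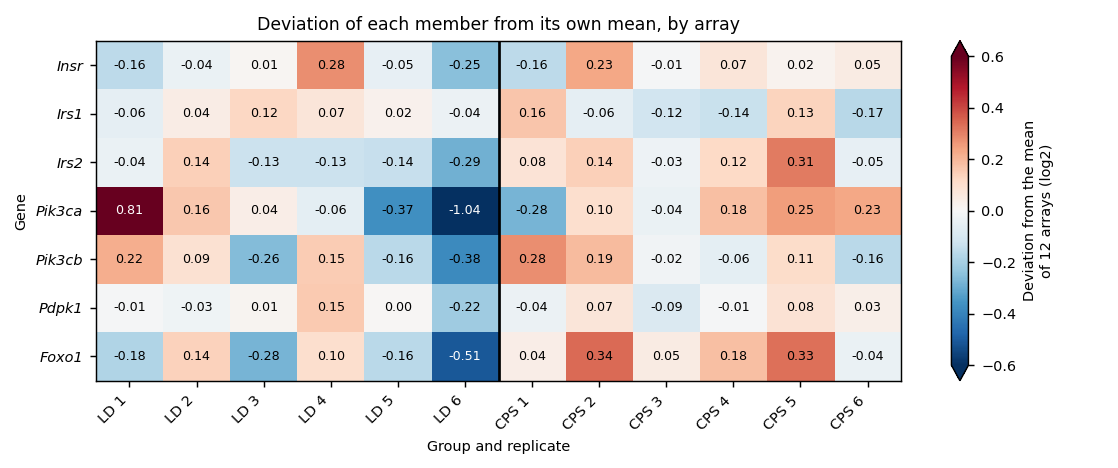
Deviation (log2) of each of the 7 genes (rows) from its own mean over the 12 arrays, by group and replicate (columns; blue lower, red higher, black line between LD and CPS). The column of LD replicate 6 is negative for all 7 genes and the lowest of its row for 6, and Pik3ca in LD replicates 1 and 6 lies beyond the ends of the colour scale.

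Pools differed in the levels of marker genes of other tissues. The 14 measured of 20 liver markers, none of them at the level of silent genes, averaged 4.38 to 6.50 in LD and 4.76 to 6.86 in CPS, and the adrenal cortex list (10 of 15 measured, 3 of them at that level) 2.89 to 3.29 and 3.04 to 3.83, with 5 of the 10 adrenal markers called higher in CPS. All 16 measured of 22 nephron markers lay above that level, with list means of 7.24 to 7.61 in LD and 7.36 to 7.72 in CPS and 0 called. The 5 adrenal markers were Cyp11a1, Cyp11b1, Cyp21a1, Akr1b7 and Mrap, which rose by 0.47 to 0.86. Of these 5, Cyp11b1 lay at the level of silent genes (mean 2.25), and Akr1b7 (2.67) and Cyp21a1 (2.83) just above it. Of the 14 liver differences 13 were positive, with a median of 0.73, and the mean of the list was 5.04 in LD and 5.68 in CPS. Only the urea cycle enzyme Cps1 was called (0.86). Skeletal muscle markers (7 of 12 measured, none at the level of silent genes) averaged 3.52 to 4.90 in LD and 3.70 to 7.09 in CPS, all 7 differences were positive with a median of 0.95, and the troponin gene Tnnc2 was called (1.66). CPS replicate 1 held the highest muscle mean. Without it the Foxo1 difference was 0.322 (0.299 with all 12 arrays) and stayed called. That of Irs2 was 0.196 (0.193 with all 12 arrays) and was not called. Irs2 kept its call in only 3 of the 12 fits with 1 array left out. Of 6 kidney stroma markers Foxd1 (0.19) and Col1a1 (0.34) were higher and Tcf21 (-0.21) lower in CPS, with list means of 8.64 to 8.87 in LD and 8.67 to 8.98 in CPS. All 6 erythroid differences were positive with 0 called (5.26 to 5.98 in LD, 5.46 to 6.25 in CPS), and of the adipose list Fabp4 was lower (-0.39). The part of the muscle, stroma and erythroid levels in the Foxo1 and Irs2 differences was not tested. The level of silent genes was taken as the 95th percentile, 2.66, of 1244 olfactory and vomeronasal receptor genes, and all 7 pathway genes lay above it. With the liver and adrenal means as covariates, the Foxo1 difference was 0.32 and that of Irs2 0.24, so both grew slightly, but neither passed. With LD replicate 6 and CPS replicate 2 removed, whose liver markers were the highest of their groups, Foxo1 differed by 0.19 and Irs2 by 0.15, and neither passed. These pools also held the lowest (5.75) and the highest (6.60) Foxo1 value of all 12, so leaving them out lowers its difference whatever their liver level.

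Whether Irs2 and Insr moved with Foxo1 from pool to pool was examined within each group of 6. In CPS, Irs2 was higher where Foxo1 was higher, with Pearson r = 0.84 (exact permutation p = 0.0264 over 720 pairings) and Spearman rho = 0.89 (exact p = 0.0333). In LD the same pair gave r = 0.77 (exact p = 0.0806) and rho = 0.54 (exact p = 0.297). The LD relation rested on its end pools: without LD replicates 2 and 6, the farthest from the Foxo1 median, r was -0.25 over the other 4, whereas without CPS replicates 2 and 5 the CPS value was 0.79, which did not pass (exact p = 0.125 over 24 pairings). With single CPS pools left out, the call held without replicate 2 or 3 and was lost without replicate 1, 4, 5 or 6 (r from 0.77 to 0.94, exact p from 0.0167 to 0.10).

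On the deposited values Insr passed with Foxo1 in neither group. Its r was 0.69 in LD (exact permutation p = 0.132, rho = 0.54 with exact p = 0.297) and 0.60 in CPS (exact permutation p = 0.224, rho = 0.54 with exact p = 0.297). Leaving out the same end pools gave 0.80 in LD and 0.28 in CPS. With Irs1, Pdpk1, Pik3ca and Pik3cb a total of 12 correlations was computed, and after Benjamini-Hochberg adjustment the lowest adjusted p was 0.311 (exact permutation). Of these other genes Pdpk1 gave r of 0.74 in LD and 0.68 in CPS, Pik3cb 0.77 and 0.41, Pik3ca 0.51 and 0.37, and Irs1 0.36 and 0.29, none past the threshold on the deposited values. With arrays centred on their medians, Insr and Irs2 passed in LD (0.80 and 0.88), as did Pik3cb (0.84). Pdpk1 then passed in both groups (0.88 in LD and 0.92 in CPS). Centring takes the same array median from both genes of a pair, and its part in these values was not tested. Whether an r differed between LD and CPS was not tested.

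**Figure D3:**
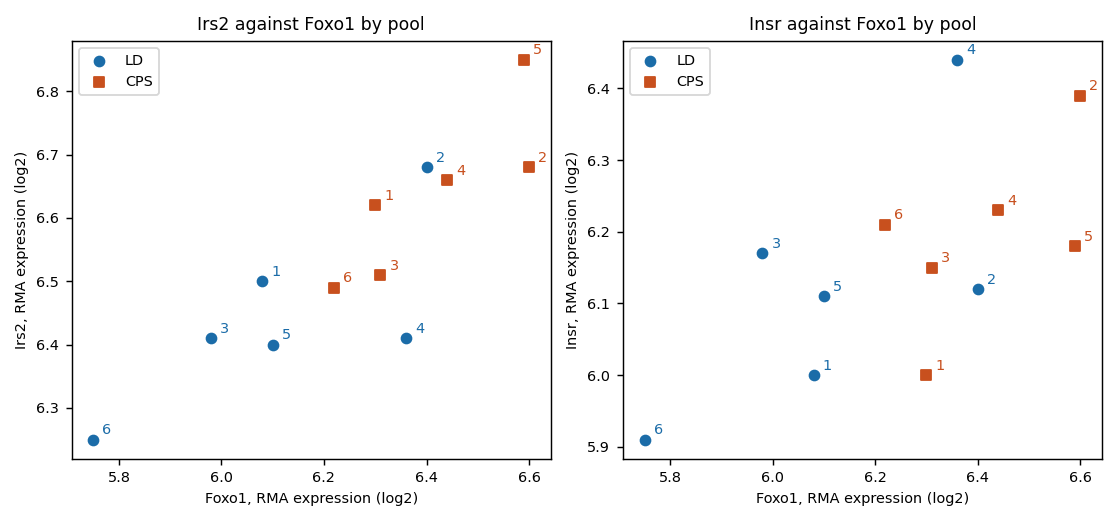
Irs2 (left) and Insr (right) against Foxo1, both as RMA expression (log2), in 6 LD (blue circles) and 6 CPS pools (orange squares), labelled by replicate. Irs2 and Foxo1 are both lowest in LD replicate 6, and among the CPS pools replicates 2 and 5 are high in both.

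As a description over all 12 arrays, with each group mean taken out, Irs2 had r = 0.79 with Foxo1. Of the 7280 genes other than Foxo1 at or above the median level, 98 (1.35%), Irs2 itself among them, had an r at least as high. The median r of the 7280 was 0.12. Shares below likewise count the member itself where it lies at or above that level. The share was 3.38% for Pdpk1 (r = 0.72), 5.88% for Insr (0.66), 6.10% for Pik3cb (0.66), 19.6% for Pik3ca (0.47) and 37.2% for Irs1 (0.27). Insr itself was closest among the 7 to Pdpk1 (r = 0.80, reached by 0.385% of genes) and was nearly unrelated to Irs2 (r = 0.15). These values share the same 12 arrays, LD replicate 6 included.

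By the same measure the genes most like Foxo1 were Kiaa1671 (r = 0.94), Slc39a9 (0.93), a zinc transporter, and Carmil1 (0.93), a regulator of actin capping, and the most opposed was Mrps33 (-0.92), a mitochondrial ribosomal protein. For Irs2 they were Ganc (0.93), a glucosidase, Zbtb10 (0.92) and Atad5 (0.90), which helps unload the replication clamp, with Ppp1r1a (-0.92), a phosphatase inhibitor, opposed. For Insr they were Fat1 (0.93), a large cadherin, Zyg11b (0.91) and Egflam (0.91), a matrix protein, with Meox2 (-0.93), a homeobox factor, opposed. None of these 12 genes differed between CPS and LD at an unadjusted limma p under 0.05.

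The wider insulin and Foxo pathway was read from a list of 88 genes, of which 63 were measured under their own symbol. In it 7 genes (11.1%) were higher in CPS, 2 (3.17%) lower and 54 neither, with a median difference of 0.05. Without the 7 members, 5 of 56 (8.93%) were higher and 2 (3.57%) lower. The list was written with results of these arrays known, its genes share the same pools, and its excess over 2.94% was not tested.

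Receptors held 2 of the calls. Igf1r, the receptor for insulin-like growth factors that uses the same docking proteins, ranged from 7.41 over 7.61 to 7.88 in LD and from 7.60 over 7.87 to 8.13 in CPS, a rise of 0.26 ± 0.11 (SE; limma p = 0.0385, exact permutation p = 0.0476). Igf2r, which carries Igf2 to the lysosome, ranged from 8.47 over 8.62 to 8.85 and from 8.71 over 8.84 to 9.00, a rise of 0.20 ± 0.09 (limma p = 0.0480, exact permutation p = 0.0411). In both, CPS replicates 2, 4 and 5 lay above every LD pool, the same 3 pools as for Foxo1, and the remaining CPS pools overlapped LD. The related receptor Insrr differed by 0.25 ± 0.12 (limma p = 0.0527, exact permutation p = 0.0671) at a mean of 2.14, within the level of silent genes.

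Among the ligands Ins1 (0.19 ± 0.12) and Ins2 (0.37 ± 0.28), the insulin genes, did not pass, and Ins1 lay at the level of silent genes. Of the 7 measured docking and adaptor genes Irs4 was called beside Irs2, with a rise of 0.35 ± 0.14 (limma p = 0.0252, exact permutation p = 0.0455), but at a mean of 2.87, just above that level. None of the 9 PI3K genes was called, and their differences ran from -0.09 to 0.15. Of the 11 kinases downstream only Gsk3b, which Akt inhibits, was called. It ranged from 9.44 over 9.60 to 9.86 in LD and from 9.63 over 9.87 to 10.07 in CPS, a rise of 0.21 ± 0.10 (limma p = 0.0444, exact permutation p = 0.0476), with CPS replicates 1, 2 and 5 above every LD pool. The Akt genes read here differed by -0.01 ± 0.06 (Akt1) and 0.04 ± 0.07 (Akt2).

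The 16 inhibitors gave 1 call in each direction. Ptprf, a receptor phosphatase that can act on the insulin receptor, ranged from 8.42 over 8.50 to 8.85 in LD and from 8.65 over 8.76 to 9.10 in CPS, and rose by 0.26 ± 0.10 (SE; limma p = 0.0230, exact permutation p = 0.0281). All LD pools but replicate 4 lay below the lowest CPS pool. Trib3, which binds Akt, was lower by -0.28 ± 0.11 (limma p = 0.0209, exact permutation p = 0.0303) at a mean of 2.09, within the level of silent genes. Among the Foxo factors Foxo3 (0.05 ± 0.09) and Foxo6 (0.17 ± 0.16) were not called. Of the 11 Foxo regulators Stk3, a kinase that in mammalian cells phosphorylates Foxo proteins, fell by 0.17 (SE 0.07, limma p = 0.0238, exact permutation p = 0.0130), from 8.09 over 8.29 to 8.42 in LD to 8.05 over 8.09 to 8.19 in CPS. LD replicate 4 was the one LD pool within the CPS range. The coactivator Ppargc1a differed by 0.28 ± 0.13 (limma p = 0.0595, exact permutation p = 0.0563), and its lowest pool of the 12 was again LD replicate 6 (7.72).

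**Figure D4:**
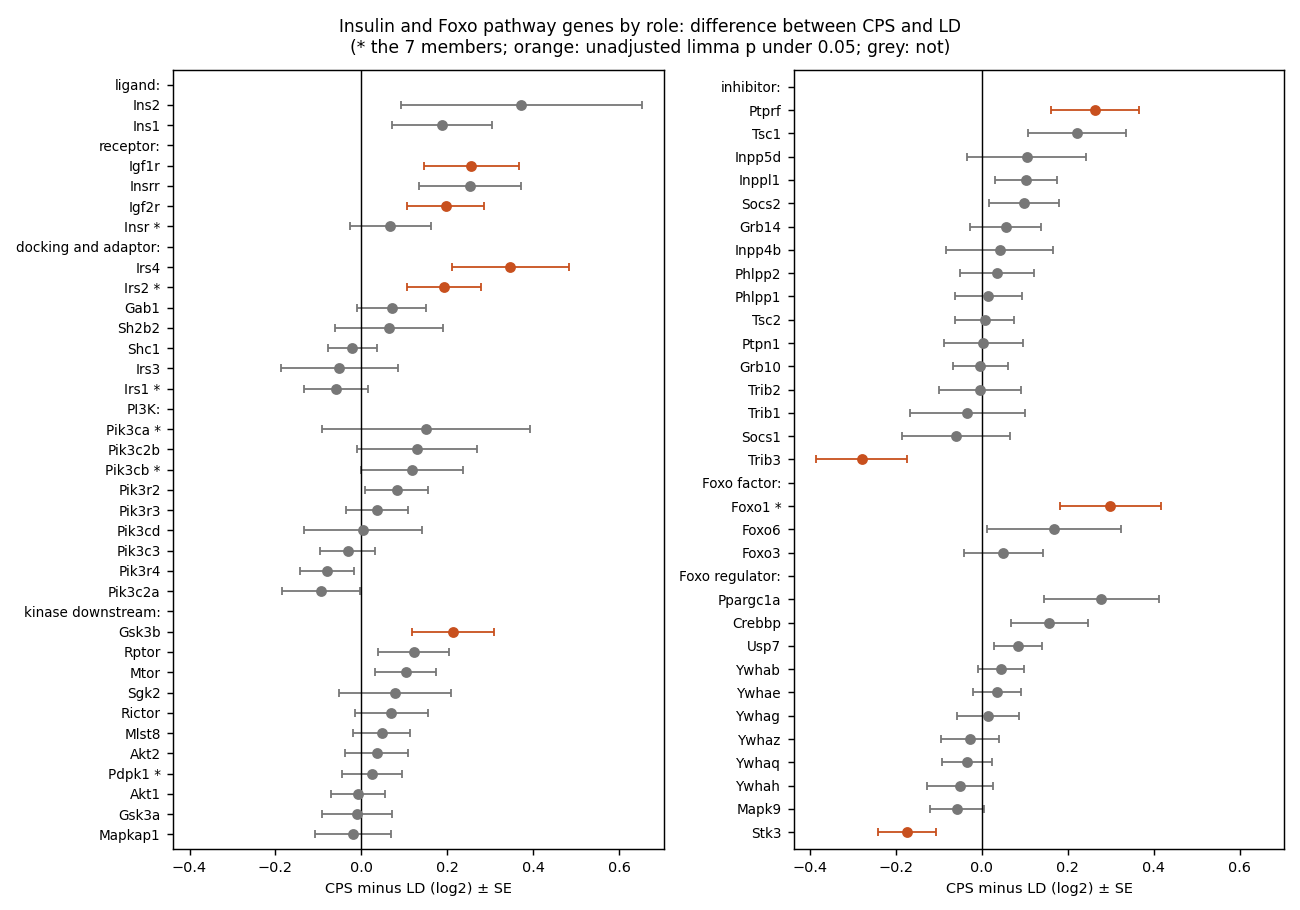
Difference CPS minus LD (log2, x axis) with its SE for the 63 measured pathway genes (y axis), grouped by role; orange marks an unadjusted limma p under 0.05 and asterisks the 7 members. The 7 orange points right of 0 and the 2 left of it stand among 54 grey ones.

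Genes that Foxo factors activate or repress in other tissues were read from a list of 44, of which 35 were measured. In CPS 3 (8.57%) were higher (Irs2, Igf1r and Txnip), 0 lower and 32 neither, beside 2.94% higher and 1.78% lower of all named genes, with a median difference of 0.04. Without Insr and Irs2 the counts were 2 higher (6.06%) and 0 lower of 33, and Igf1r of these 2 was also on the pathway list. With single arrays left out, the number of the 35 called higher ran from 0 to 5. Counts this small do not set the list apart from all named genes, and the shares were not tested. Txnip, an inhibitor of glucose uptake and of thioredoxin, ranged from 8.78 over 8.88 to 9.02 in LD and from 8.84 over 9.12 to 9.27 in CPS, a rise of 0.19 ± 0.08 (SE; limma p = 0.0314, exact permutation p = 0.0303). CPS replicates 1, 2, 3 and 5 lay above every LD pool, while CPS replicates 4 and 6 lay within the LD range.

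Of the calls outside the 7 genes, all but that of Trib3 were also lost in some fits with 1 array left out. With each of the 12 arrays left out in turn, Trib3 kept its call in all 12 fits, Ptprf in 10 (lost without CPS replicate 2 or 4) and Stk3 in 10 (lost without LD replicate 1 or 2). Irs4 kept it in 8, lost without LD replicate 3 or 4 or CPS replicate 3 or 6. Igf1r kept its call in 6 fits, Igf2r and Txnip in 5 and Gsk3b in 4, and each of these 4 lost it without LD replicate 5 or 6 or CPS replicate 2 or 5, among others. The replicate block ended the calls of Irs4, Stk3 and Txnip, median centring those of Igf1r, Gsk3b, Trib3 and Stk3, and the liver and adrenal covariates those of Igf2r, Irs4, Gsk3b, Ptprf and Stk3. Without both arrays of highest liver mean, Igf1r differed by 0.20, Igf2r by 0.16, Gsk3b by 0.15, Txnip by 0.17 and Ptprf by 0.18, none of them past the threshold.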

How the data were processed

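RNA of 12 fetal kidney pools was hybridised to Affymetrix Rat Gene 2.1 ST arrays, 1 array per pool, grouped by sample title. From the scans the authors derived log2 expression with RMA (Robust Multiarray Average: background correction, quantile normalization and probe summary). The Affymetrix Expression Console is named in the submitters' processing notes, its version not being given in the sources used here. The deposited log2 table of 36685 clusters was used as it stood. Scans, detection calls and other experiments were not analysed here, and dim genes are judged against olfactory receptor genes. Array medians were 3.31 to 3.50, correlations between arrays 0.978 to 0.987, and the median residual SD of a cluster 0.23; the number of arrays limits the precision.

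Symbols came from the platform annotation, in which 14830 clusters had 1 symbol, 823 several and 21032 none. Where a gene had several clusters, that with the highest mean was kept. The 7 genes and all lists were chosen with earlier results of these data known. CPS was compared with LD by limma 3.58.1 (lmFit and eBayes, two-sided, R 4.3.3), with a call at an unadjusted p under 0.05, the cutoff of the study's own one-way test, and p-values adjusted by Benjamini-Hochberg over every cluster. An exact permutation over 924 relabelings was added for single genes, and correlations were tested by exact permutation of 720 pairings (Python 3.11.15, scipy 1.17.1). The limma fit was tried on simulated arrays with independent noise per cluster. These held no array-wide difference, so the trial says nothing about pools such as LD replicate 6. Alternatives were the methods' unpaired one-way test, array weights, a replicate block, robust spread with an intensity trend, median centring, a filter at the median level, quantile normalization once more, marker means as covariates, the fit without the arrays of highest liver mean, and each array left out. For correlations, Spearman's rho, the end arrays left out and the liver mean removed within groups were also tried.

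Genes named are the 7, every list gene past the threshold, the ligands, receptors, Akt and Foxo genes measured, Ppargc1a (named after its value was seen), and, for Foxo1, Irs2 and Insr, the 3 most alike genes and the most opposed one by r of group-centred values, at or above the median level of 5.19. Promoter windows are RefSeq's (GRCr8), 1 per gene.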

Additional observations from a re-analysis of the deposited data

Results flagged for a closer look

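One value among those described stood far from the rest of its group. Ptprf in LD replicate 4 measured 8.85 on the log2 scale, above the next LD pool at 8.56, and the gap was 0.658 of the LD range, past the critical value of Dixon's test for 6 samples. It was the only such value in 30 groups of 6 that were tested, where chance gives about 1 in 20. None of the 7 pathway genes had one, LD replicate 6 included.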

How the results depend on the processing

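Foxo1 and Irs2 stayed higher in CPS under every alternative run, while their calls did not always hold. Irs2 was no longer called with arrays centred on their medians (0.23), with liver and adrenal cortex means as covariates (0.24) or without both arrays of highest liver mean (0.15), and Foxo1 under the latter pair (0.32 and 0.19). Without those arrays the uncalled differences changed sign for Insr (-0.015), Pdpk1 (-0.030) and Pik3ca (-0.046), as did Irs1 with the covariates (0.050). The members called higher were then 1 with median centring and 0 in both other fits. Pathway genes called higher fell to 1 with covariates and 2 without the high-liver arrays, and those called lower to 1 with the block, the level filter or the covariates and 0 with median centring. Foxo targets called higher were 1 with median centring or without the high-liver arrays, and those called lower 2 with covariates and 1 without the high-liver arrays. The filter tests fewer clusters, and leaving arrays out uses fewer samples; the cause of the other changes was not tested.

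Median centring raised the LD correlations with Foxo1 past the threshold, to r = 0.80 for Insr (exact permutation p = 0.0417), 0.88 for Irs2 (exact permutation p = 0.0153), 0.88 for Pdpk1 (exact permutation p = 0.0111) and 0.84 for Pik3cb (exact permutation p = 0.0472), and that of Pdpk1 in CPS to 0.92 (exact permutation p = 0.0111). Centring takes the same array median (3.31 to 3.50) from both genes of a pair, which by itself can raise r. How much of these rises came from that shared term was not tested. On the deposited values Pik3cb also passed without replicate 1 of LD (0.98) and without replicate 1 of CPS (0.92), each in its own group. Without the end arrays Irs2 gave -0.25 in LD and 0.79 in CPS, Irs1 -0.10 and Pdpk1 -0.22 in CPS, and Pik3ca -0.22 in LD.

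With each array left out in turn, differences ran from 0.23 to 0.36 for Foxo1, 0.15 to 0.24 for Irs2, -0.017 to 0.057 for Pdpk1 and -0.042 to 0.33 for Pik3ca. The correlation with Foxo1 ran from 0.77 to 0.94 for Irs2 (call kept in 2 of 6 fits) and -0.044 to 0.72 for Irs1 in CPS, and from -0.13 to 0.80 for Pik3ca in LD. Counts ran from 0 to 2 for the members, 1 to 8 and 1 to 2 for pathway genes higher and lower, and 0 to 5 and 0 to 1 for the targets.

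The replicate numbers shared by LD and CPS did not pair the arrays, since deviations of same-numbered arrays correlated at -0.06 to 0.05. With the replicate block, both calls held at the same difference, while those of Irs4, Stk3 and Txnip did not. The limma p was then 0.00813 for Foxo1 (0.30) and 0.0494 for Irs2 (0.19), the latter just under the threshold. Each member had 1 cluster, so a mean over several clusters gave no value.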
